A study of Mus musculus with 14 samples.

Results

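The genome-wide occupancy of CRTC2 in 3T3-L1 cells treated with TNFα for 1 h was compared with that in untreated control cells. The comparison rests on 2 lists of peaks, regions where sequenced ChIP tags pile up above the input, with 19527 peaks with TNFα and 5188 peaks in control. These 24715 peaks were taken from the 243429 regions in all the peak lists of the series. A TNFα peak that overlapped a control peak by at least 1 bp was called kept (2283 peaks), and a TNFα peak with no overlapping control peak was called gained (17244 peaks). A control peak with no overlapping TNFα peak was called not called again (2909 peaks), and the other 2279 control peaks were called again with TNFα. An absent call says that a region did not pass the peak caller's limits, not that CRTC2 was absent there.

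The series holds ChIP-seq libraries for CRTC2, for the NF-κB subunit p65 and for acetylated histone H3 lysine 27 (H3AcK27), with no treatment, with forskolin (FSK), with TNFα, or with both. 3T3-L1 is a mouse fibroblast line that turns into fat cells in culture, and by the study's methods the cells had been differentiated for 4 days. Both CRTC2 libraries used the same in-house CRTC2 antibody and were called against input from untreated cells. There was 1 library in each group, so the differences have no replicate check, no test between conditions was possible, and the 95% intervals given below cover counting error over peaks or tags only.

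CRTC2 is a coactivator of the transcription factor CREB, which binds the cAMP response element (CRE), a short DNA sequence found in many promoters. In resting cells salt-inducible kinases phosphorylate CRTC2 and hold it in the cytoplasm, and its dephosphorylation lets it enter the nucleus and join CREB on DNA. TNFα is an inflammatory cytokine that activates NF-κB and the kinases upstream of AP-1 factors, and in adipose tissue it is known for raising chemokine output and lowering the response to insulin.

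The palindromic CRE, TGACGTCA, was found within 200 bp centred on the peak midpoint in 166 gained peaks and in 55 kept peaks. These are 0.963% of gained and 2.41% of kept peaks, beside 1.58% of windows around all protein-coding start sites. The following 30-base stretches, read 5′ to 3′ from the GRCm38 reference, are those of 3 gained peaks among the highest of them by TNFα tags, and they show the CREB recognition sequence at or beside peaks called with TNFα and not in control. The CRE is in capitals. That of Azin1 lies just past the edge of its called peak (chr15:38519159-38519315). Each lies in the promoter window of the gene named.
Azin1 chr15:38519306-38519335 (plus strand): gcgggggctgcTGACGTCAcagacggccgg
Tubb2a chr13:34078049-34078078 (plus strand): cccagtcccgcTGACGTCAtgggggcagag
Efr3a chr15:65787007-65787036 (plus strand): cggcaacgcgcTGACGTCAcgggcgtgggt
Azin1 encodes a protein that stabilises ornithine decarboxylase by binding its inhibitor antizyme, and Tubb2a encodes a tubulin. The 4 kept peaks with the most TNFα tags that held the same sequence lay at the promoters of Ier2, an immediate-early gene, Fscn1, an actin-bundling protein, Errfi1, a feedback inhibitor of the EGF receptor, and Wsb1, an adaptor of a ubiquitin ligase. Their sequences are printed in the same way, and the CREs of Errfi1 and Wsb1 lie across an edge of the called peak.
Ier2 chr8:84662879-84662908 (plus strand): tatactgagagTGACGTCActgcaacacca
Fscn1 chr5:142960299-142960328 (plus strand): cgtggccacggTGACGTCAtcctcctataa
Errfi1 chr4:150855008-150855037 (plus strand): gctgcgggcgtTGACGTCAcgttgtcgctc
Wsb1 chr11:79254715-79254744 (plus strand): ggtgtagtgggTGACGTCAgaccatcaggc
The AP-1 sequence, TGAGTCA, is bound by Jun and Fos proteins and differs from the CRE by the missing central base. It is shown in capitals for the 4 gained peaks with the most tags among those outside promoters that held it.
Cwc22 chr2:77951663-77951692 (plus strand): caaaaggactgTGAGTCAgccagcacagtc
Tusc1 chr4:93881508-93881537 (plus strand): ccttaaacctaTGAGTCAgactactgctta
Mrpl39 chr16:84703273-84703302 (plus strand): ctggtcggttaTGAGTCAcgagcgggctat
Eif3j1 chr2:122028595-122028624 (minus strand): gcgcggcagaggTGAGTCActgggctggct
These 4 AP-1 peaks had 108.0, 59.3, 33.6 and 28.0 normalized tags, where a normalized tag count is the number of tags in a peak per 10000000 tags of its library. The peaks nearest Cwc22 and Tusc1 were not called in the CRTC2 libraries treated with FSK or with FSK and TNFα. They had 8.25 and 5.48 times the input, against the required 4, and the Tusc1 peak lay at -546059 bp from the start. All these sequences were chosen by tag rank after the peaks were known.

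The TNFα library held 26472345 tags and the control library 18885214. Of these, 3.10% and 0.62% fell in called peaks, so the TNFα library differed from control both in depth and in the share of its tags in peaks. The lowest tag number that could be called was 8 in both, which is 3.02 normalized tags with TNFα and 4.24 in control. The comparison with input removed 29.7% of 32176 putative TNFα peaks and 58.1% of 12884 putative control peaks. How far depth and enrichment set the larger TNFα list was not tested, and with 1 library a group they cannot be told apart from the treatment. In 5 bins of 2 Mb (3 on chromosome 10, 1 on chromosome 4, and the mitochondrial genome) the input over the listed peaks was more than 5 times the median of all bins. They held 9 of the first 10 TNFα peaks and 9 of the first 10 control peaks, 21 of the first 100 TNFα peaks and 10 of the first 100 control peaks, so they are left out where peaks are ranked for naming genes. Of 8 adipocyte marker genes, Pparg, Fabp4 and Lpl had an H3AcK27 region over a transcription start in control cells, whereas Cebpa, Adipoq, Plin1, Cidec and Cd36 did not, beside 49.5% of all protein-coding genes. The same marker count with TNFα was 3 of 8. Of the markers of other cells, Csf1r of 5 macrophage genes, S100a8 of 3 neutrophil genes and 0 of 3 endothelial genes had such a region in control, and Cd68 also had one with TNFα. The adipocyte markers, at 37.5%, thus lay below the 49.5% of all protein-coding genes, and this mark over their starts does not by itself bear out the label adipocyte.

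Of all TNFα peaks, 11.7% were kept, and of all control peaks, 43.9% were called again. The strongest control peaks were the ones found again. When each list was cut into 10 groups of equal size by tags, 466 of 519 peaks of the highest group of the control list (16.9 to 238 normalized tags), or 89.8% (95% Wilson interval 86.9 to 92.1), were called again, against 18.7% (15.6 to 22.3) in the lowest group (4.24 to 7.41 normalized tags). In the TNFα list the share that had already been called in control was 51.4% (49.2 to 53.6) in the highest group (28.3 to 831 normalized tags), 4.92% in group 5 and 0.82% (0.505 to 1.33) in the lowest. Ranked by fold over input, the control list had the other order. Of its highest group 37.6% and of its lowest group 45% were called again. The TNFα list kept its order in that ranking, with shares of 27.2% and 2.87%.

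**Figure D1:**
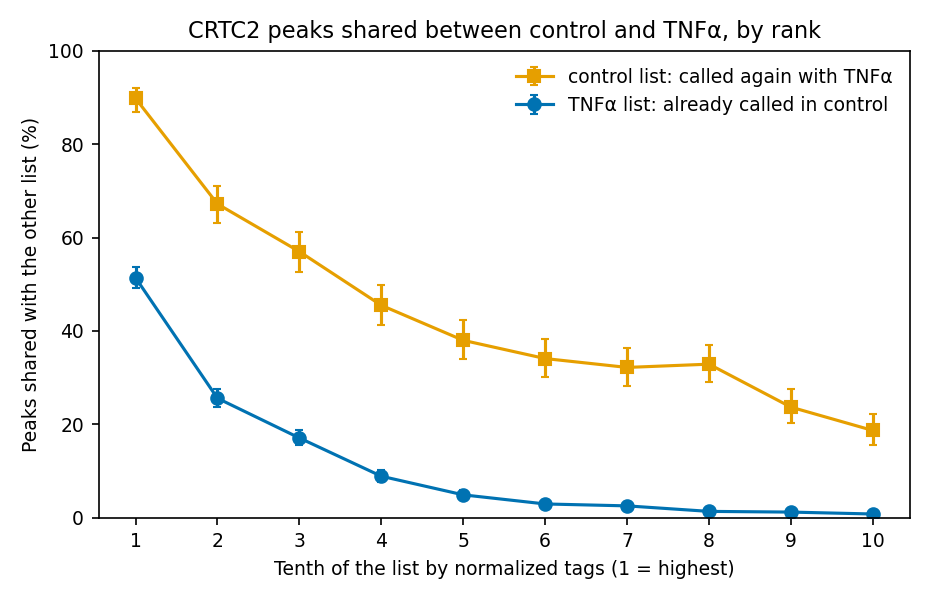
Share of CRTC2 peaks shared with the other list (vertical axis, %) in 10 equal groups of each list by normalized tags (horizontal axis, 1 is the group with the most tags); bars are 95% Wilson intervals over peaks. The share declines from 89.8% to 18.7% in the control list (squares) and from 51.4% to 0.82% in the TNFα list (circles).

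The classes also differed in signal. Gained peaks had a median of 11 normalized tags (3.02 to 761), kept peaks had 26.1 with TNFα (4.53 to 831), and peaks not called again had 10.1 in control (4.24 to 37.6). Most gained peaks therefore lay in the lower part of the TNFα list, with a median rank of 10757.5 of 19527, whereas kept peaks had a median rank of 2389. Near the limit that separates the classes, 50 kept peaks overlapped their control peak by fewer than 20 bp, with a median overlap of 126 bp over all kept peaks. Beyond the limit, 209 gained peaks lay within 100 bp of the edge of a control peak without overlapping it, and 196 peaks not called again lay within 100 bp of the edge of a TNFα peak.

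Kept peaks were promoter peaks. A promoter was taken as the 1000 bp before to the 100 bp after the start of a protein-coding transcript. Peak midpoints lay there in 80.9% of kept peaks (79.3 to 82.5), in 40.3% of gained peaks (39.6 to 41.1) and in 13.6% of peaks not called again (12.4 to 14.9). Introns and intergenic DNA held 30.3% and 22.5% of gained peaks, and 40.1% and 42.2% of peaks not called again. The median distance to the nearest start was 71 bp for kept peaks, 1119 bp for gained peaks and 23523 bp for peaks not called again. Base composition followed the same order, with a median GC content of 63.5%, 53.5% and 42%.

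The position of gained peaks varied with their rank. The promoter share was 82.6% among gained peaks in the highest of the 10 groups of the TNFα list and 11.4% in the lowest. When the TNFα list was shortened to the 5188 peaks with the most tags, the length of the control list, 3443 peaks were gained and 79.1% of them lay in promoters, against 22.5% of the control peaks then not called again.

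**Figure D2:**
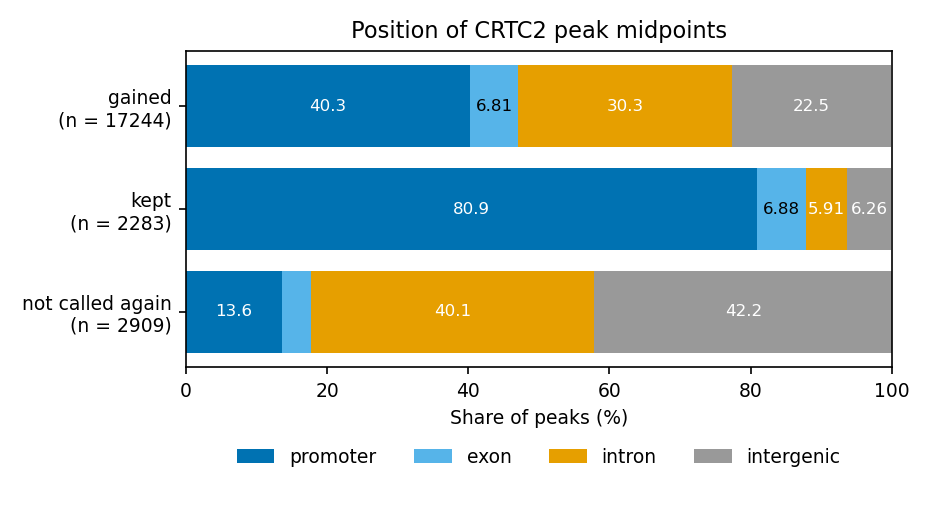
Position of CRTC2 peak midpoints as a share of the peaks of each class (horizontal axis, %), with the number of peaks beside each bar. The promoter share is 80.9% for kept, 40.3% for gained and 13.6% for not called again peaks.

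The CRE core, TGACG, was searched on both strands in the 200 bp centred on each midpoint. It was present in 25.3% of kept peaks (23.5 to 27.1), 14.4% of gained peaks (13.9 to 15) and 7.29% of peaks not called again (6.4 to 8.29). In windows placed 2 kb to either side of the same peaks the shares were 6.57%, 5.94% and 5.21%, and in the windows around all protein-coding start sites 18.2%. Within promoters the classes lay closer together, at 27.1% for kept, 23.4% for gained and 20.8% (17.1 to 25) for peaks not called again. Outside promoters they were 17.7% (14.4 to 21.6), 8.35% (7.83 to 8.90) and 5.17% (4.37 to 6.11), the last of these within its interval of the 5.07% found 2 kb away.

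The AP-1 sequence showed another order. It was present in 7.98% of gained peaks outside promoters (7.47 to 8.52), in 5.06% of kept peaks outside promoters (3.36 to 7.54) and in 2.20% of gained promoter peaks (1.88 to 2.57), beside 2.69% of all start-site windows. Among gained peaks outside promoters, 5750 overlapped an H3AcK27 region in control or TNFα cells, and 4539 did not. The AP-1 sequence lay in 11.1% of the acetylated ones (10.3 to 12), against 3.77% in windows 2 kb away, and in 4.01% of the others (3.48 to 4.62), against 3.21%. The CRE core lay in 10.5% of the acetylated ones (9.75 to 11.3) and 5.60% of the others (4.96 to 6.30), against 6.19% and 5.41% in windows 2 kb away. With lists of equal size, the order of all peaks was another, with AP-1 in 1.89% of gained, 2.12% of kept and 4.47% of peaks not called again, against 5.65%, 2.67% and 4.47% in the full lists. The acetylated peaks outside promoters that were not called again also held AP-1 in 11% (8.57 to 14), an interval that includes the value of the gained ones. The full CRE contains the CRE core, and a window can hold both a CRE core and an AP-1 sequence.

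Other motifs were scarcer. Either of 2 fixed 10-base forms of the NF-κB site, searched on both strands, was present in 31 gained peaks, 2 kept peaks and 5 peaks not called again. These are 0.18% (0.127 to 0.255), 0.0876% (0.024 to 0.319) and 0.172% (0.0734 to 0.402), against 0.0865% of start-site windows. CCGGAAGT, bound by ETS factors, was present in 7.23% of kept, 3.23% of gained and 1.03% of peaks not called again, beside 3.81% of start-site windows. TTGCGCAA, bound by C/EBP factors that drive fat cell differentiation, was present in 5 kept peaks, 22 gained peaks and 4 peaks not called again. These are 0.219%, 0.128% and 0.138%, beside 0.149% of start-site windows.

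H3AcK27 marks active promoters and enhancers. It overlapped 98.5% of kept peaks in control cells (97.9 to 98.9), 71.3% of gained peaks (70.6 to 71.9) and 29% of peaks not called again (27.4 to 30.7). With TNFα the shares were 98.6%, 71.4% and 28.8%. Most gained peaks thus lay in regions that were called acetylated in both states (12009 peaks, 69.6%), while 295 overlapped a region only with TNFα and 281 only in control. Of the peaks not called again, 2028 (69.7%) overlapped no H3AcK27 region in either library.

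p65 peaks with TNFα overlapped few CRTC2 peaks. They overlapped 105 gained peaks (0.609%), 17 kept peaks (0.745%) and 10 peaks not called again (0.344%), out of 2404 p65 peaks. By tags, the first gained peaks with a p65 peak lay at the promoters of Cxcl1 (87.6 normalized tags), Gbp2 (59.3), Gxylt1 (53.3), Map3k8 (49.1, with a control peak 13 bp away) and Exosc8 (36.6). Gbp2 is an interferon-inducible GTPase, and Map3k8 is a kinase held by the NF-κB1 precursor. These genes were chosen by the p65 overlap after it was seen.

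Of the gained peaks, 23.1% overlapped a CRTC2 peak of cells treated with FSK, a compound that raises cAMP, and 26.1% one of cells treated with both agents. These other CRTC2 lists were called against the input of FSK-treated cells, while the H3AcK27 and p65 lists used here were called against the input of untreated cells. In the highest of the 10 groups of the TNFα list these shares were 70.8% and 74.2%, and in the lowest 3.77% and 5.58%. Kept peaks overlapped the same lists in 71.7% and 71.8%, and peaks not called again in 6.33% and 6.7%.

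**Figure D3:**
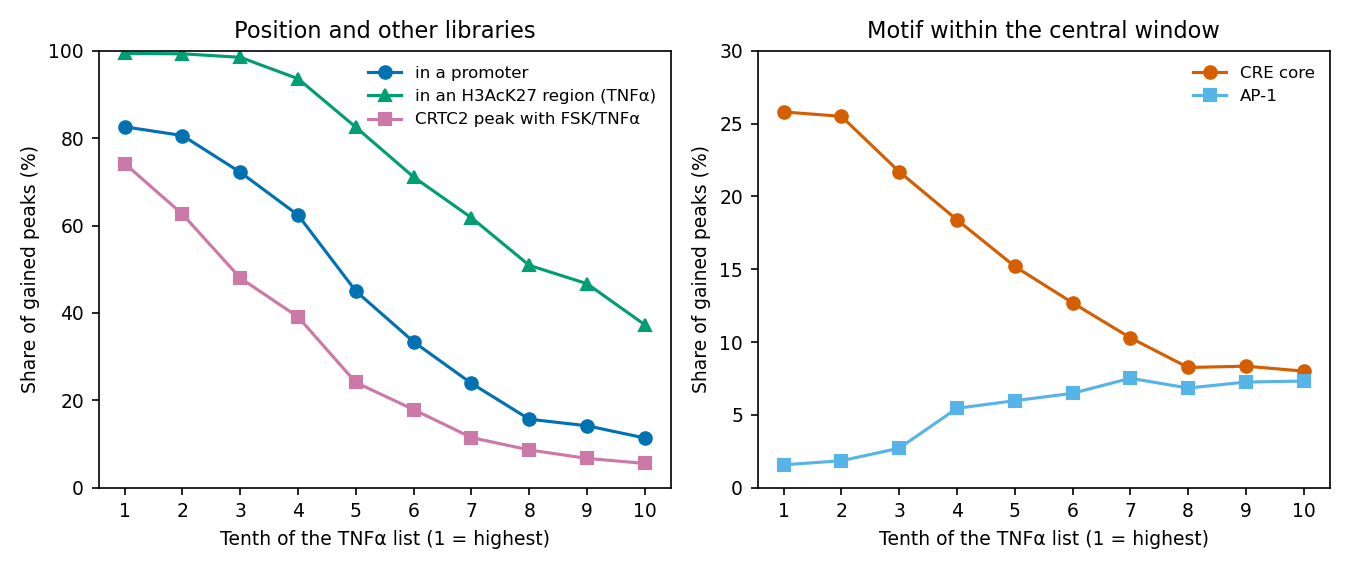
Share of gained CRTC2 peaks (vertical axes, %) in 10 equal groups of the TNFα list by normalized tags (horizontal axes, 1 is the group with the most tags), on the left for promoters, H3AcK27 regions and CRTC2 peaks with FSK/TNFα, on the right for the CRE core and AP-1 sequences in the 200 bp around the midpoint. The promoter share goes from 82.6% to 11.4% and the CRE core share from 25.8% to 8.01%, while the AP-1 share starts at 1.58%.

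At the 2279 pairs of overlapping peaks the signal could be compared directly. The normalized tags were higher with TNFα in 2072 pairs (90.9%), and the ratio of TNFα to control had a median of 2.11 (95% interval 2.06 to 2.18), with quartiles of 1.47 and 2.95. In 1240 pairs (54.4%) the TNFα peak was at least 2-fold higher, and in 5 (0.219%) at least 2-fold lower. The median was 2.22 in promoters and 1.78 outside them. After all ratios were divided by their median, which takes out a difference common to all pairs, 181 pairs were at least 2-fold higher and 238 at least 2-fold lower. A ratio of single genes below is therefore best read against 2.11. Across the 2279 pairs, which share both libraries, the tags of the libraries had a Spearman correlation of 0.405.

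**Figure D4:**
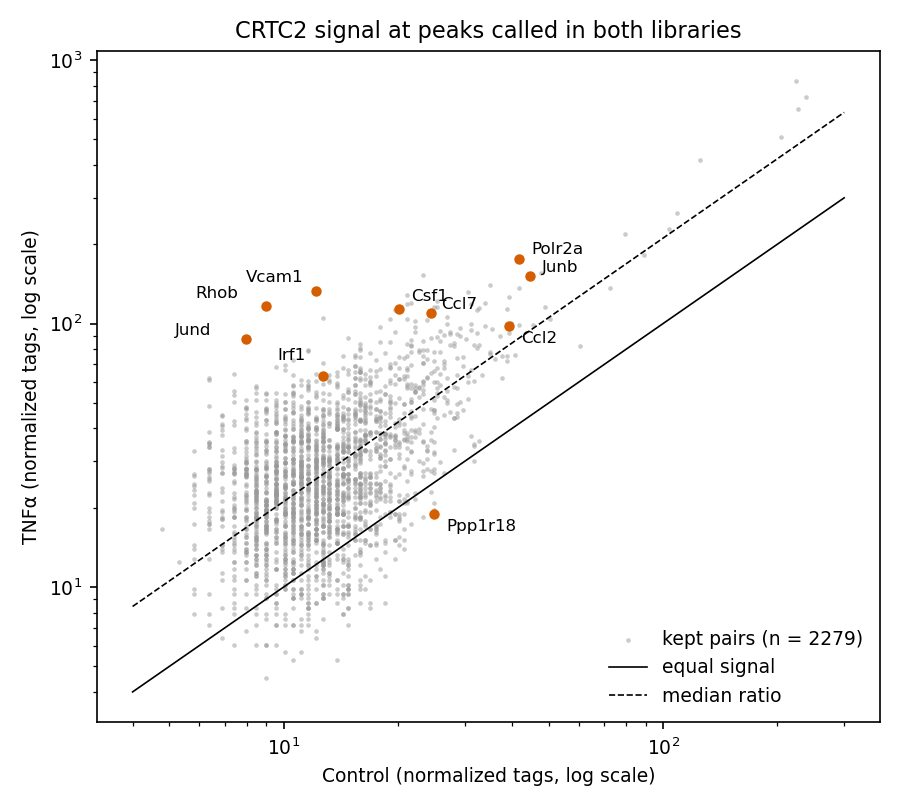
Normalized tags of the 2279 pairs of overlapping CRTC2 peaks in control (horizontal axis) and with TNFα (vertical axis), both on log scales, with a solid line for equal signal and a dashed line for the median ratio of 2.11. Most points lie above the solid line; Rhob, Jund and Vcam1 lie farthest above the dashed line among the named genes, and Ppp1r18 lies below the solid line.

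Among pairs with a mean of at least 20 normalized tags outside the high-input bins, the highest ratio was at the promoter of Rhob, a small GTPase of the immediate-early kind, with 9 in control and 116.3 with TNFα (12.9-fold, 95% interval 7.94 to 22.5). Jund, a Jun family member of AP-1, had 7.94 and 87.3 (11-fold, 6.52 to 19.9). Vcam1, an adhesion molecule for leukocytes and a textbook NF-κB target, had 12.2 and 133.3 (10.9-fold, 7.18 to 17.5) and moved from rank 1801 of the control list to rank 27 of the TNFα list. Zfp316, a zinc finger protein, and Plec, a linker of the cytoskeleton, followed at 9.81-fold and 9.57-fold. All 5 of these peaks lay at promoters, and none held the CRE core. The lowest ratios were at Ppp1r18 with 24.9 in control and 18.9 with TNFα (0.759-fold, 0.499 to 1.16), Efna1 (0.787), Mknk2 (0.794), Ndufb5 (0.835) and Pias3 (0.943). The interval of each of these 5 includes 1 and lies below the median ratio of 2.11, and the 5 were picked as the lowest. The 5 pairs at least 2-fold lower with TNFα had means under 20 normalized tags and so were not among those ranked here. Of these, a promoter peak of Hdlbp had 18.5 normalized tags in control and 8.69 with TNFα, and it was singled out after its values were seen.

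The strongest kept peaks were those of Polr2a, the largest subunit of RNA polymerase II, with 41.8 normalized tags in control and 176.4 with TNFα, of the splicing factor gene Srsf7 with 47.7 and 154.9, and of Ier3, an immediate-early gene, with 23.3 and 153.0. Junb, Tmem167b, Ing1, Vcam1 and Trpv2 were also among the first 10. Of the peaks named here, those nearest Polr2a, Tmem167b and Trpv2 held the CRE core, and those nearest Tmem167b and Trpv2 were intergenic, at 7456 and 26794 bp from the nearest start. The strongest gained peaks fell into separate kinds. Of the first 10, those nearest Mdm1 (269.7 and 187.7 normalized tags, beside the high-input part of chromosome 10), Sfi1 (126.5) and Cwc22 (108.0) had 5.98 to 8.64 times the input, against the required 4. Dusp1, a phosphatase that shuts off MAP kinases, had 103.1 normalized tags at 132.52 times the input. Hist2h2bb (95.9), the lactate transporter Slc16a1 (89.5), Cxcl1 (87.6), Sirt4 (80.1) and the translation repressor Eif4ebp1 (80.1) had 18.71 to 75.08 times the input. The Sirt4 peak lay 30 bp from a control peak with 24.9 normalized tags that was among the 5 strongest not called again. The others of these 5 were nearest Tusc1 (37.6 and 22.2, at 5.09 and 4.08 times the input), Fam173b (24.9) and Rapgef6 (23.8). The control peaks of Rapgef6 and Fam173b had a TNFα peak 245 and 216 bp away.

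Promoter calls were then counted per gene, a gene being called when a peak overlapped the promoter window of any of its protein-coding transcripts. Of 21866 protein-coding genes, 8723 (39.9%) were called with TNFα, 2582 (11.8%) in control, 6228 (28.5%) with TNFα and not in control, and 87 (0.398%) in control and not with TNFα. By distance, 8907 genes (40.7%) were the nearest gene of a gained peak within 50 kb. In the gene lists described next, a ratio sets the strongest promoter peak of a gene with TNFα over its strongest in control.

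Of 23 genes for chemokines and cytokines, 11 (47.8%) were called with TNFα and 7 (30.4%) in control, against 39.9% and 11.8% of all genes, and 5 (21.7%) were called with TNFα and not in control, against 28.5%. Cxcl1, a neutrophil chemokine, had no control peak as nearest gene within 50 kb and a promoter peak of 87.6 normalized tags with TNFα (rank 89, chr5:90891187-90891343), which also overlapped a p65 peak. Csf1, the macrophage growth factor, had 20.1 normalized tags in control and 114 with TNFα (5.66-fold, 4.02 to 8.14), again with a p65 peak. Cxcl5, another neutrophil chemokine, had 12.7 and 54.4 (4.28-fold, 2.77 to 6.90), also with a p65 peak. Of the monocyte chemokines, Ccl7 had 24.4 and 109 (4.48-fold, 3.27 to 6.26), and Ccl2, which was rank 23 in control, had 39.2 and 97.8 (2.49-fold, 1.92 to 3.28). Cxcl10, whose window held the CRE core, had 12.7 and 45 (3.54-fold, 2.27 to 5.74). The windows of the TNFα peaks of Cxcl1, Csf1, Cxcl5, Ccl7 and Ccl2 held no CRE core, and that of Cxcl1 held an NF-κB site. Lif, a cytokine of the IL-6 family, had a gained peak of 11.3 normalized tags at -538 bp from the start. At Il6 the strongest promoter peaks were at different positions, at -252 bp from the start in control with 14.8 normalized tags and at 14 bp with TNFα with 11.7 (0.791-fold, 0.458 to 1.37). The control peak was itself called again with TNFα, so this ratio compares peaks at different sites. Cxcl12, a chemokine of stromal cells, was called only in control, with 10.6. No peak was called in either library at the promoter, or as nearest gene within 50 kb, of Cxcl2, Tnf, Il1b, Il33, Ccl20, Csf3 and Cxcl16.

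Of 23 NF-κB subunits, inhibitors and targets, 21 (91.3%) were called with TNFα, 10 (43.5%) in control and 11 (47.8%) with TNFα and not in control, against the same 39.9%, 11.8% and 28.5%. Among the 11 is Sod2, whose TNFα peak overlapped a control peak of 17.5 normalized tags outside the promoter window, so such counts can include kept peaks. The 10 with promoter peaks in both had a median ratio of 4.01, which is 1.90 times the median of all overlapping pairs. These measures are unlike, since the strongest TNFα promoter peaks of Map3k8, Ripk2, Nfkb2 and Rela overlapped no control peak. No like baseline over all genes was computed. By the same measure the median was 3.91 for chemokines and cytokines, 3.01 for adipocyte identity and 2.94 for the CREB and CRTC machinery. It was 2.78 for CREB targets and for AP-1 genes, 2.3 for insulin signalling and 1.83 for TNF receptor signalling. Each of these medians rests on 2 to 7 genes. Nfkbia, the inhibitor IκBα, had a promoter peak of 79.3 normalized tags with TNFα (rank 113), and the nearest control peak assigned to it lay 26297 bp away. Nfkbie, the inhibitor IκBε, had 8.47 and 54.4 (6.42-fold, 3.82 to 11.5), and Irf1, a transcription factor of the interferon response, had 12.7 and 63.1 (4.97-fold, 3.22 to 7.97). Tnfaip2 had 15.9 and 54.4, and Nfkbiz, a nuclear IκB protein, had 16.9 and 48.0. Tnfaip3, the ubiquitin-editing brake A20, had a gained peak of 17.4 normalized tags that overlapped p65 and held the CRE core. The windows of the TNFα peaks of Nfkbia, Nfkbie, Irf1, Tnfaip2 and Nfkbiz held no CRE core. Of the subunits, all 5 had a gained promoter peak as their strongest with TNFα, with 41.9 normalized tags at Nfkb2, 21.2 at Relb, 20.4 at Rela, 14.0 at Rel and 12.1 at Nfkb1, while Nfkb2 and Rela also had a control peak elsewhere in the promoter (9.53 and 12.7). These control peaks of Nfkb2 and Rela were called again with TNFα. Icam1 had no peak. Of 19 genes of TNF receptor signalling, 16 (84.2%) were called with TNFα and 3 (15.8%) in control, against 39.9% and 11.8% of all genes. With TNFα and not in control 14 (73.7%) were called, against 28.5%. They included both receptors, Tnfrsf1a (16.6) and Tnfrsf1b (15.9), and the adaptor Tradd (30.2), none of which was called in control, while Chuk, the kinase IKKα, had 17.5 and 47.2.

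**Figure D5:**
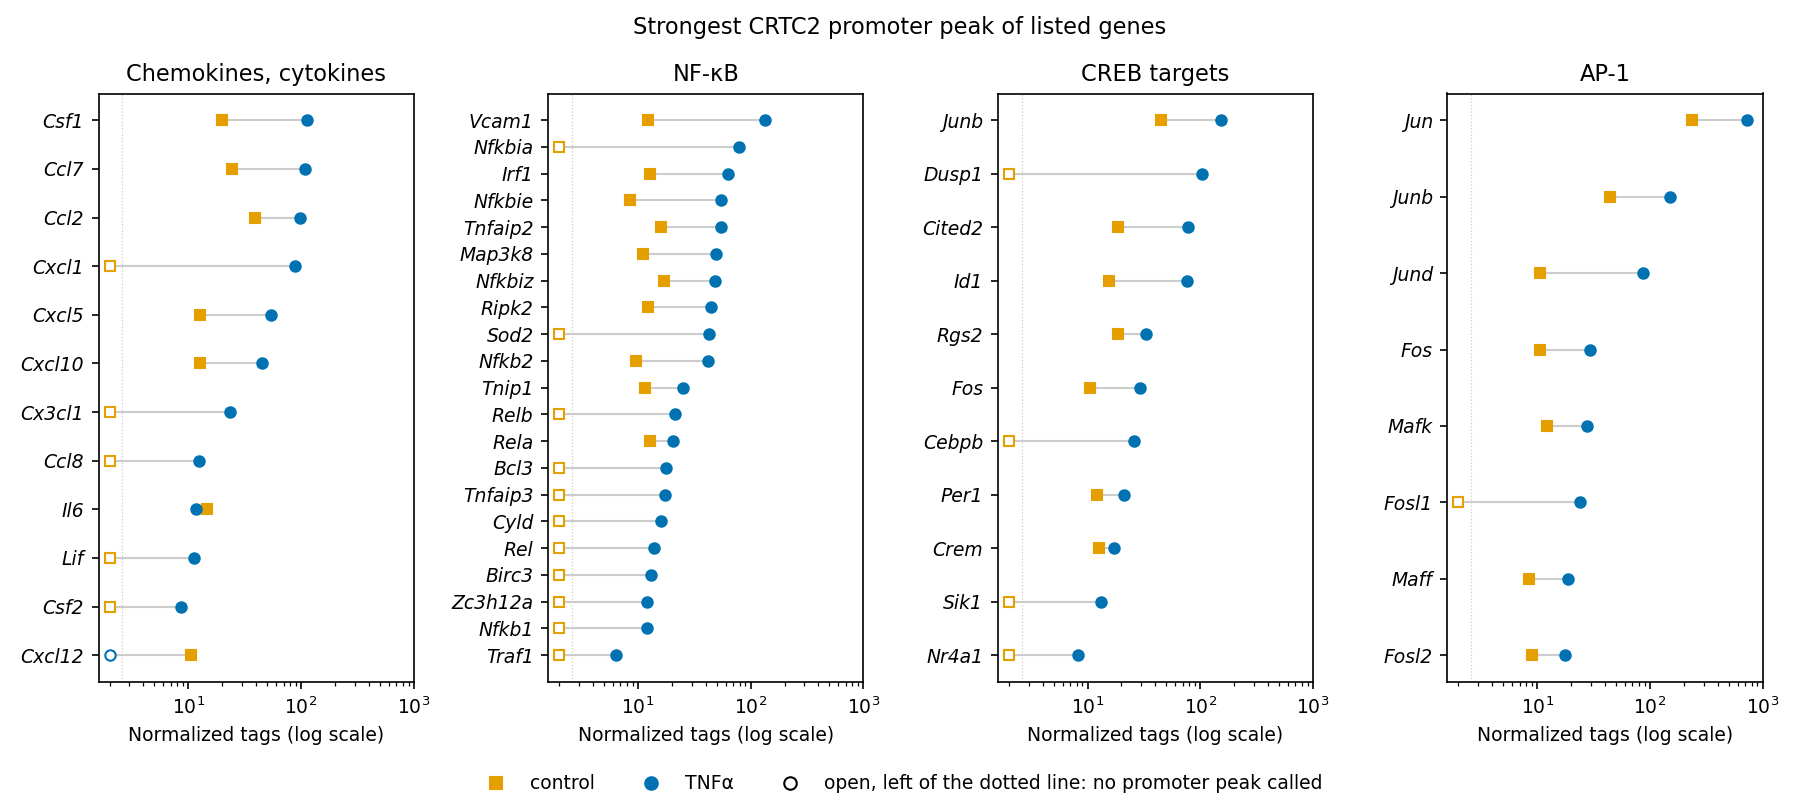
Normalized tags (log scale) of the strongest CRTC2 promoter peak in control (squares) and with TNFα (circles) for members of 4 gene lists with a promoter peak in either library; open symbols left of the dotted line stand for no promoter peak called, and peaks joined by a line need not overlap. Cxcl1, Nfkbia and Dusp1 have no control promoter peak and 87.6, 79.3 and 103 normalized tags with TNFα; Cxcl12 has a promoter peak in control alone.

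Of 20 CREB targets, 11 (55%) were called with TNFα, 7 (35%) in control and 4 (20%) with TNFα and not in control, against 39.9%, 11.8% and 28.5% of all genes. Cited2 had 18.5 and 77.4 normalized tags (4.18-fold, 2.91 to 6.16), Id1, an inhibitor of helix-loop-helix factors, had 15.4 and 75.9 (4.93-fold, 3.34 to 7.57), and Fos, with a CRE core in its window, had 10.6 and 29.5 (2.78-fold, 1.69 to 4.80). The windows of the TNFα peaks of Cited2 and Id1 held no CRE core. Crem, which encodes CREB family repressors, was at 1.34-fold (0.798 to 2.30), below the median of all pairs. The nuclear receptor gene Nr4a1 had a gained promoter peak of 8.31 normalized tags and a control peak of 16.9 at -7635 bp from the start. That control peak was called again with TNFα. All 16 genes of the CREB and CRTC machinery were called with TNFα, 6 (37.5%) in control and 10 (62.5%) with TNFα and not in control. The shares of all genes were the same 39.9%, 11.8% and 28.5%. Creb1 itself, with a CRE core, had 19.1 and 44.2 (2.31-fold, 1.58 to 3.47). Sik2, a kinase that holds CRTC2 in the cytoplasm, had no control peak and 21.2 normalized tags with TNFα. Of 11 AP-1 genes, 8 (72.7%) were called with TNFα and 7 (63.6%) in control, against 39.9% and 11.8% of all genes. Only Fosl1 was called with TNFα alone. Junb had 44.5 and 152 (3.4-fold, 2.69 to 4.36), and Jun, in the high-input bin of chromosome 4, had 238 and 722 (3.03-fold, 2.73 to 3.36).

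Genes of the fat cell and of insulin action were counted in the same way. Of 24 genes of adipocyte identity and lipid storage, 12 (50%) were called with TNFα and 5 (20.8%) in control. These shares stood against 39.9% and 11.8% of all genes, and the 7 called with TNFα and not in control (29.2%) against 28.5%. Dgat1 had 18 and 97.1 normalized tags (5.39-fold, 3.76 to 7.96), Fasn had 20.7 and 73.7 (3.56-fold, 2.52 to 5.17), and Dgat2 had 19.6 and 58.9. Dgat1 and Dgat2 make triglycerides, Fasn makes fatty acids, and the windows of Dgat1 and Dgat2 held the CRE core. Other genes of lipid synthesis had gained promoter peaks of fewer tags, with 15.5 at Acaca, 9.44 at Agpat2 and 8.69 at Scd1. Cebpd, an early differentiation factor, had a gained peak of 45, also with a CRE core, and Lpl, the lipoprotein lipase, had 12.2 and 10.6 (0.869-fold, 0.482 to 1.58). No peak was called in either library at Cebpa, Pparg, Adipoq, Plin1, Cd36, Cidec, Cfd, Lep, Retn, Adrb3 or Klf15, of which Cebpa, Adipoq, Plin1, Cidec and Cd36 also had no H3AcK27 region over a start. Of 15 genes of insulin signalling and glucose uptake, 13 (86.7%) were called with TNFα, 5 (33.3%) in control and 8 (53.3%) with TNFα and not in control. The shares of all genes were the same 39.9%, 11.8% and 28.5%. Irs2, an adaptor of the insulin receptor, had 7.41 and 42.7 (5.76-fold, 3.29 to 10.9). Socs3, a suppressor of cytokine and insulin signalling, had a gained peak of 61.2, and Ptpn1, the phosphatase PTP1B that acts on the insulin receptor, had one of 41.6 with a CRE core. The glucose transporter Slc2a4 had no peak, while Slc2a1 had 15.9 and 36.6.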

How the data were processed

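ChIP-seq reads were processed by the authors with STAR and HOMER (versions not given in the sources used here) on mm10. The deposited lists give HOMER normalized tag counts (signal, tags per 10000000), findPeaks score (at most 1 tag per position) and fold ratio over the input or local background. Peaks were called by the authors per library at an FDR of 0.001, with at least 4 times the input (Poisson p of 0.0001). H3AcK27 regions are the authors' own calls in 500 bp units. The input libraries were not analysed here, and 4 other lists were not used.

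Overlaps, ranks and motifs were computed in Python 3.11.15 with pandas 2.3.3, scipy 1.17.1 and pysam 0.24.0, with GRCm38 sequence and GENCODE M21 starts, and the code was tested on simulated data. Ratio intervals are exact binomial intervals on tags. Peaks were ranked by normalized tags. Members and the 8 gene lists were chosen with earlier results of these data known. Named genes were members of these lists, and the nearest genes of the 10 strongest gained, 10 strongest kept and 5 strongest not called again peaks, and of the 5 highest and 5 lowest ratios, outside the high-input bins. Other overlap rules, windows, scalings and limits were also tried. Some peaks that these rules select are not reported here.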

Additional observations from a re-analysis of the deposited data

How the results depend on the processing

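Across the alternatives 232 values were computed. Of these, 121 left the interval of the reported share or differed by more than 1.5 times from the reported count, and 111 did not. The order of values did change in places, between the highest and lowest rank groups of the control list ranked by fold over input, between pairs higher and lower once scaled to the median, and for AP-1 between gained and kept peaks with lists of equal size. No paired analysis was possible because each group had 1 library. For the same reason no replicate could be left out.

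The share of TNFα peaks kept and of control peaks called again was 9.49% and 35.7% when 50% of both peaks had to overlap, 10.4% and 39.1% with midpoints within 100 bp, 17.3% and 53.9% with peaks widened to 500 bp on either side, 9.94% and 41.0% (1468 kept peaks) with at least 8 times the input, and 33.6% in both with lists of equal size (3443 gained). With midpoints within 100 bp the highest of the 10 rank groups held 48% (TNFα) and 84% (control) shared peaks. Ranked by score, the highest and lowest control groups held 93.6% and 26.3%, and ranked by fold over input 37.6% and 45.0%, with 27.2% and 2.87% for TNFα. The median ratio was 1.69 from scores, with 753 pairs at least 2-fold higher and 2 lower, and by construction 1 when scaled to the median, with 181 and 238. Fold over input gave 92 pairs at least 2-fold lower.

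Promoter shares of gained, kept and not called again peaks were 54.2%, 92.0% and 21.4% with 2500 bp on either side, 47.1%, 88.4% and 17.7% with all annotated starts, and 79.1%, 84.2% and 22.5% with lists of equal size. Gained peaks with at least 8 times the input were at 45.6%. In the same order the CRE core was in 7.06%, 11.8% and 3.47% of 100 bp windows, 25.3%, 42.0% and 13.9% of 400 bp windows, and 8.35%, 17.7% and 5.17% outside promoters. With lists of equal size it was in 25% of gained and 9.50% of not called again peaks. AP-1 was in 2.79%, 0.92% and 2.27% of 100 bp windows and 10.1%, 5.61% and 8.35% of 400 bp windows. Outside promoters it was in 7.98%, 5.06% and 4.65%, and with lists of equal size in 1.89%, 2.12% and 4.47%, where gained peaks were the lowest.

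H3AcK27 regions of 8 times the input overlapped 54.7%, 84.8% and 22.4% (control) and 57.4%, 88.4% and 22.1% (TNFα). With lists of equal size the shares were 98.9%, 98.9% and 39.6%, and 99.1%, 99.3% and 39.3%. p65 overlaps by midpoint were 0.371% of gained and 0.394% of kept peaks. With lists of equal size 4708 genes were called with TNFα and 2708 with TNFα and not in control, and 67 and 28 genes of the lists.

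Without chromosomes 3, 5, 11 and 15, an alternative chosen after the data were seen, 1474 peaks were kept and 1578 not called again, with 11.1% and 48.2% shared. Promoters held 45.1% of gained and 15.4% of not called again peaks, 15.4% of gained peaks held the CRE core, H3AcK27 overlapped 76.4% (control) and 76.5% (TNFα) of gained and 30.7% (TNFα) of not called again peaks, and p65 overlapped 0.414% of gained peaks. The causes of these shifts were not tested. Limits set to the lowest values of the control list left nearly all gained peaks. Left were 17232 of 17244 with the fewest control tags at control depth, and 17203 at or above the lowest control tag count. Few could be removed, since the lowest control peak had 4.24 normalized tags and gained peaks had a lower quartile of 8.31. Neither limit changed the input comparison, which removed 58.1% of putative control peaks and 29.7% of putative TNFα peaks. The part of depth and enrichment in the gained peaks was not tested by these limits. A region without a call has no value here.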

Other observations

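The control peaks that were not called again were unevenly spread over the chromosomes. Chromosome 3 held 491 of them (16.9%, 3.07 per Mb) and chromosome 15 held 330 (11.3%, 3.17 per Mb), while the X chromosome had 0.345 per Mb. Gained peaks were densest on chromosome 11 (13.2 per Mb), followed by chromosomes 15 (10.1) and 3 (9.82). The input over the listed peaks was 1.47 times the median chromosome on chromosome 3, 1.32 times on chromosome 15 and 1.28 times on chromosome 11. Its part in these counts was not tested.

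Some genes were nearest to many gained peaks within 50 kb. These genes were chosen after the counts were seen, and long genes can gather more peaks. Asap1, a regulator of Arf GTPases and the actin skeleton, had 14 gained peaks, the strongest with 13.6 normalized tags. Tgfbr3, the TGFβ co-receptor betaglycan, had 13, and Rnf213, a large ubiquitin ligase, had 11. Control peaks of Asap1, Tgfbr3 and Rnf213 numbered 3, 3 and 2. Fam129b had 10 gained peaks and no control peak. Nfkb1, which encodes the p50 subunit of NF-κB, had 10 gained peaks of up to 14.7 normalized tags and no control peak. Acaca, the enzyme that makes malonyl-CoA for fatty acid synthesis, had 9, also with no control peak. Nfkb1 lies on chromosome 3 and Acaca on chromosome 11, both among the chromosomes densest in gained peaks.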
